A study of Mus musculus with 24 samples.

Results

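The genes described here are 10 imprinted genes that are known to set growth or neural development: Igf2, H19, Cdkn1c, Dlk1, Peg3, Ndn, Snrpn, Grb10, Plagl1 and Nnat. They were chosen by symbol, and all 10 were found among the 25135 genes listed for both ages. The libraries were made from RNA of nuclei sorted from the mouse cortex on postnatal days 1 (P1) and 30 (P30), with 6 wild-type (WT) and 6 Kdm6b-cKO libraries per age and 24 in all. Kdm6b-cKO mice carried Emx1-Cre and were homozygous for floxed Kdm6b, which encodes a demethylase of the repressive mark H3K27me3, whereas WT mice were Kdm6b wt/wt littermates. Both genotypes carried the SUN1-GFP nuclear reporter on a C57BL/6 background, and GFP+ nuclei were collected by fluorescence-activated nuclei sorting (FANS). The reporter is described as labelling Emx1 progeny in both genotypes, although Emx1-Cre is written out in the genotype of Kdm6b-cKO only. Emx1-Cre acts in dorsal telencephalic progenitors, so the gate holds cortical glutamatergic neurons, astrocytes and oligodendrocytes, and cells outside that lineage were not deleted. The labels give neither the sex nor the number of animals behind a library, so that p-values measure the spread between these libraries.

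An imprinted gene is expressed mainly from the copy inherited from one parent, because a differentially methylated region, set in the germ line, silences the other copy. Many paternally expressed imprinted genes promote fetal growth and many maternally expressed ones restrain it, and a set of them is known to be downregulated in many organs after birth as growth slows. In the brain several of these genes stay active in neurons, and Igf2 is made chiefly by the meninges and choroid plexus. The values hold no allele information, and therefore report the summed expression of both copies.

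On the mm9 build the members lie on 5 chromosomes. Igf2 (chr7:149836673-149852721), H19 (chr7:149761434-149764048) and Cdkn1c (chr7:150644255-150646955) share the distal end of chromosome 7, all on the minus strand. Chromosome 7 also carries Peg3 (chr7:6656603-6683132), Ndn (chr7:69493163-69494814) and Snrpn (chr7:67127388-67285105). Dlk1 lies at chr12:110691033-110701546, Grb10 at chr11:11830511-11938686, Plagl1 at chr10:12810497-12851500 and Nnat at chr2:157385814-157388258. H19 is annotated as a noncoding processed transcript and the other 9 as protein coding. Promoters from RefSeq (GRCm38.p6 build, 250 bases before to 50 bases after a start) matched 8 of the 10 members with 15 start sites. H19 and Cdkn1c had no entry.

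Promoters are shown for the gene that was highest at P1 (Nnat), the gene that moved up with age (Peg3) and the gene with the lowest exact p between genotypes at P30 (Plagl1). Capitals mark the letters TGCCGC, the motif of ZFP57, which protects imprints, or its reverse complement GCGGCA in Nnat and Plagl1, and the palindrome GGGGCCCC, bound by PLAGL1, in Peg3. Both strands were searched, and the ZFP57 letters cannot overlap the PLAGL1 letters, although they can overlap their own reverse complement.
Nnat (chr2:157559828-157560127, plus strand): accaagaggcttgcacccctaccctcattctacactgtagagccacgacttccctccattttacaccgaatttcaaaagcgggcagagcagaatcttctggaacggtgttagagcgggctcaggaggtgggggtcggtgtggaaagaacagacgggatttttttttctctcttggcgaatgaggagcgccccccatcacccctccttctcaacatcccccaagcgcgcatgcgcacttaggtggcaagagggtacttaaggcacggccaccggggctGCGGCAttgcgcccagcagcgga
Peg3 (chr7:6730370-6730669, minus strand): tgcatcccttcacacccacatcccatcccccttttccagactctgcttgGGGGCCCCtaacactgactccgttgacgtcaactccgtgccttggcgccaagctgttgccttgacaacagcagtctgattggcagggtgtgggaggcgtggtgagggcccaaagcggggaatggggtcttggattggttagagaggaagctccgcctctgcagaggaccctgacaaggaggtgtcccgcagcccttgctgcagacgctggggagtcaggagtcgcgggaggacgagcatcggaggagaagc
Plagl1 (chr10:13090582-13090881, plus strand): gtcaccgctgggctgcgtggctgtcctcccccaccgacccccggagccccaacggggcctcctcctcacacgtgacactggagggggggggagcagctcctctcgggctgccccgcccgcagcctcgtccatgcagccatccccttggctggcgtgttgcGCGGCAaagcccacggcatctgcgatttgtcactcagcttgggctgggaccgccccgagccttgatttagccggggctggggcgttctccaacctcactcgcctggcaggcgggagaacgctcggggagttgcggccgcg
The ZFP57 letters stood in 11.6% and the PLAGL1 letters in 1.08% of 32851 promoters of the same length. One start site each of Grb10, Igf2 and Snrpn also held the ZFP57 letters. These are matches of letters and say nothing of binding in these nuclei.

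Expression was measured as FPKM, fragments scaled to transcript length and to the size of the library. Library totals are not listed, and an effective depth was taken from the spacing of the lowest values, which differ by whole reads, with fragments of 200 bases assumed. It ranged from 823000 to 3920000 reads in WT and from 192000 to 2860000 in Kdm6b-cKO at P1. In the same order it ranged from 5130000 to 8340000 and from 1940000 to 8070000 at P30. The shallowest library was Kdm6b-cKO 5 at P1 (192000), where 5 reads of H19 stood for 12.5 FPKM. Kdm6b itself was at 37.8 ± 11.3 FPKM in WT and 29.0 ± 9.67 in Kdm6b-cKO at P1, and at 21.6 ± 4.08 and 23.4 ± 4.36 at P30 (SD, n = 6). Neither difference passed the test (limma adjusted p = 0.534 at P1 and 0.828 at P30). The exons that are floxed are not given in the sources used here and the tables hold 1 value per gene, so that these values do not check the deletion, and the genotypes are used as the labels give them. At P1, WT 2 to 5 and Kdm6b-cKO 5 held more than 100 olfactory receptor genes above 0, whereas Kdm6b-cKO 0 and 1 held 3423 and 3239 FPKM of the ribosomal precursor Rn45s against 28.7 to 899 in the other 10. At P30, Kdm6b-cKO 3 and 4 held the most Rn45s (15420 and 25878 FPKM), and WT 0 with Kdm6b-cKO 0, 1 and 5 held less than 1000.
The markers of the lineage were present in every group, and so were those of cells outside it. The 8 glutamatergic markers summed to at least 374 FPKM in each P1 library and at least 210.1 in each P30 library. GABAergic markers, which the Emx1 lineage should lack, summed to between 405 and 1479 FPKM at P1. At P30 these markers summed to 32.6 to 94.0 FPKM in WT 2 to 5 and to 144 to 386 in the other 8 libraries.

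Because the ages were normalized in separate tables, levels were compared across ages by rank within a library. A percentile of 100 marks the highest FPKM among the 25135 genes, and no test was applied. Genes at 0 FPKM tie and take the middle of their ranks, so that they stand above the bottom of the scale. A gene was counted as lower at P30 when all 12 P30 libraries lay below all 12 P1 libraries. Among the 10 members, 4 were lower (H19, Cdkn1c, Ndn and Nnat), 1 was higher (Peg3) and 5 overlapped. Of the 16895 genes whose mean reached 1 FPKM at either age, 8.23% were lower and 8.93% were higher by the same rule. The median change over the 10 members was -16.0 percentile points, beside -0.52 over those 16895 genes. Snrpn enters that median at -32.9, although the sum of Snrpn and Snurf, symbols that share a transcript, stood at 99.3 at P1 and 97.6 at P30. With that sum in place of Snrpn the median change would be smaller in size. The members with lower medians at P30 numbered 8, and Grb10 and Peg3 had higher ones.

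**Figure D1:**
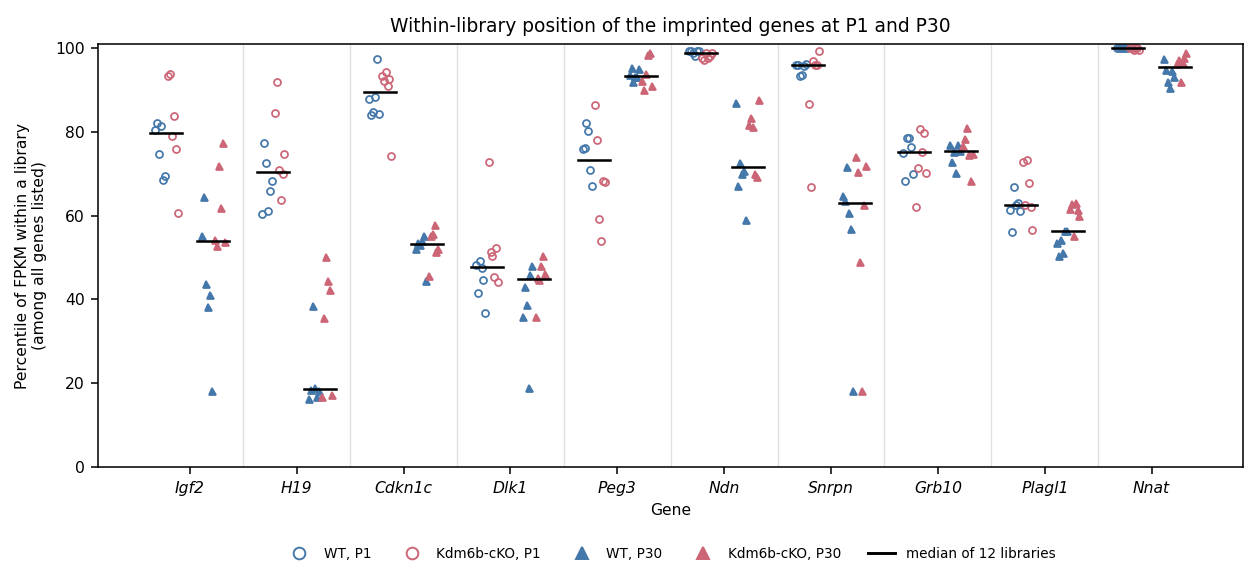
Percentile of FPKM within each library (vertical axis, among 25135 genes) for the 10 imprinted genes, with open circles for P1, filled triangles for P30, blue for WT, red for Kdm6b-cKO and black lines for the median of 12 libraries. H19, Cdkn1c, Ndn and Nnat separate downward, Peg3 separates upward, and Grb10 stays at a median of 75.1 and 75.4.

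Igf2, the fetal growth factor of the insulin family, and H19, a noncoding RNA that shares its enhancers, were both detected in every P1 library. The Igf2 median percentile was 79.7 at P1 (60.7 to 93.7) and 54.0 at P30 (18.2 to 77.2). The P30 libraries WT 1 and Kdm6b-cKO 2, 3 and 4 lay above the lowest P1 library, Kdm6b-cKO 5, the shallowest of all (192000 effective reads). At P30, Kdm6b-cKO 2 and 4 also lay above WT 4 and 5 at P1. The part of depth in these positions was not tested. Among the WT libraries alone, Igf2 did not overlap between ages (median 77.5 against 42.4), and among the Kdm6b-cKO libraries alone it did (81.5 against 58.0). With 6 libraries per age the rule is easier to meet, and in WT alone it held for 13.8% of the 25135 genes against 5.53% over all libraries. H19 went from a median percentile of 70.3 (60.3 to 91.9) to 18.6 (16.4 to 50.1), the largest fall of any member. Only 0.189% of the 16895 genes fell as far. H19 values were whole reads within 0.05, and they amounted to 227 reads in WT and 231 in Kdm6b-cKO at P1, against 2 and 11 at P30, where the median depth was greater in both genotypes. It was listed at 0 in 7 of the 12 P30 libraries. The tied rank of genes at 0 placed H19 at 16.4 to 18.8 in those libraries, so that its P30 median is the position of undetected genes.

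Growth restraint is the known role of Cdkn1c, a cyclin-dependent kinase inhibitor, and of Grb10, an adaptor that dampens insulin and IGF receptor signalling. They parted with age. Cdkn1c had a median percentile of 89.6 at P1 (74.1 to 97.4) and 53.2 at P30 (44.3 to 57.8), and all P30 libraries lay below all P1 libraries. Grb10 had 75.1 at P1 (62.1 to 80.7) and 75.4 at P30 (68.3 to 81.0), and the ages overlapped almost entirely.

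Dlk1 encodes a transmembrane ligand related to the Notch ligands, and Plagl1 a zinc-finger transcription factor that is known to act on other imprinted genes. Both had overlapping ages, with lower medians at P30. The Dlk1 median was 47.9 at P1 (36.7 to 72.9) and 45.0 at P30 (18.8 to 50.3), and 1 P30 library was at 0. Plagl1 had 62.5 at P1 (56.2 to 73.2) and 56.3 at P30 (50.3 to 63.0).

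Peg3, a zinc-finger protein linked to growth and maternal behaviour, was the one member that moved up. Its median percentile was 73.4 at P1 (53.9 to 86.4) and 93.3 at P30 (90.1 to 98.7), and every P30 library lay above every P1 library. A rise as large was seen in 7.60% of the 16895 genes.

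Ndn, Snrpn and Nnat are paternally expressed genes with known roles in neurons. Ndn, which encodes necdin and lies in the region deleted in Prader-Willi syndrome, had a median of 98.8 at P1 (97.1 to 99.4) and 71.6 at P30 (58.9 to 87.6). Nnat, which encodes the membrane proteolipid neuronatin, had a median percentile of 99.97 at P1 (99.6 to 99.99) and 95.5 at P30 (90.5 to 98.8). Percentiles are compressed near the top, and by rank Nnat went from a median place of 8 at P1 (4 to 110) to 1133.5 at P30 (294 to 2385).

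Snrpn encodes a spliceosomal protein, and its transcript also carries Snurf, so that reads divide between both symbols. Snrpn alone had a median percentile of 95.9 at P1 (66.8 to 99.4) and 63.0 at P30 (18.1 to 74.0). It was listed at 0 in WT 5 and Kdm6b-cKO 3 at P30, while Snurf stood at 74.6 and 79.1 FPKM in those libraries. Kdm6b-cKO 5 at P1 showed the opposite split, with 304.5 FPKM of Snrpn and 0.0175 of Snurf. The sum of both symbols had a median percentile of 99.3 at P1 (98.2 to 99.5) and 97.6 at P30 (95.3 to 98.7), and overlapped between ages. The position of Snrpn alone is therefore uncertain.

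The neighbours of the members did not all move the way the members did. Usp29, which lies beside Peg3 in a shared imprinted domain, was lower at P30 (median percentile 77.4 against 63.9), whereas Peg3 was higher. Magel2, the neighbour of Ndn, was lower (59.5 against 42.0), and Blcap, the host of Nnat, was lower as well (95.9 against 81.8). Meg3, the maternally expressed noncoding RNA of the Dlk1 domain, was at 445 to 2363 FPKM at P1 and was listed at 0 in all 12 P30 libraries. Malat1, an abundant nuclear RNA, was also listed at 0 in all 12, and no fold is given for Meg3. Rian and Mirg, noncoding RNAs of the same domain, were higher at P30 (61.0 against 86.7, and 66.3 against 98.1).

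Of the wider list of 67 other imprinted genes, 55 reached a mean of 1 FPKM at either age. Among these 7 were lower and 5 were higher at P30, with a median change of -2.90 percentile points. Over the 16895 genes the shares were 8.23% lower and 8.93% higher. The same shares stand beside the lists that follow, and no list was tested. Without Meg3, whose 0 at P30 is not read as a level because Malat1 shares it, 6 of 54 were lower and the median change was -2.23. Besides Meg3, Usp29, Magel2 and Blcap, the lower ones were Mkrn3, Gnas and Dcn. The higher ones besides Rian and Mirg were Nap1l5, Kcnk9 and Rasgrf1. In the insulin-like growth factor list, 5 of 18 genes were lower and 1 was higher. The lower ones were the binding proteins Igfbp2, Igfbp3 and Igfbp7 and the RNA-binding proteins Igf2bp1 and Igf2bp3, which bind Igf2 messenger RNA, and the higher one was Igfbp6. The imprint maintenance list had 1 lower gene, Zfp57 (98.3 against 81.8), and 4 higher ones among 14, namely Dnmt3a, Zfp445, Arid4b and Tet2. Zfp57 encodes the protein whose letters are marked in the promoters shown above.

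**Figure D2:**
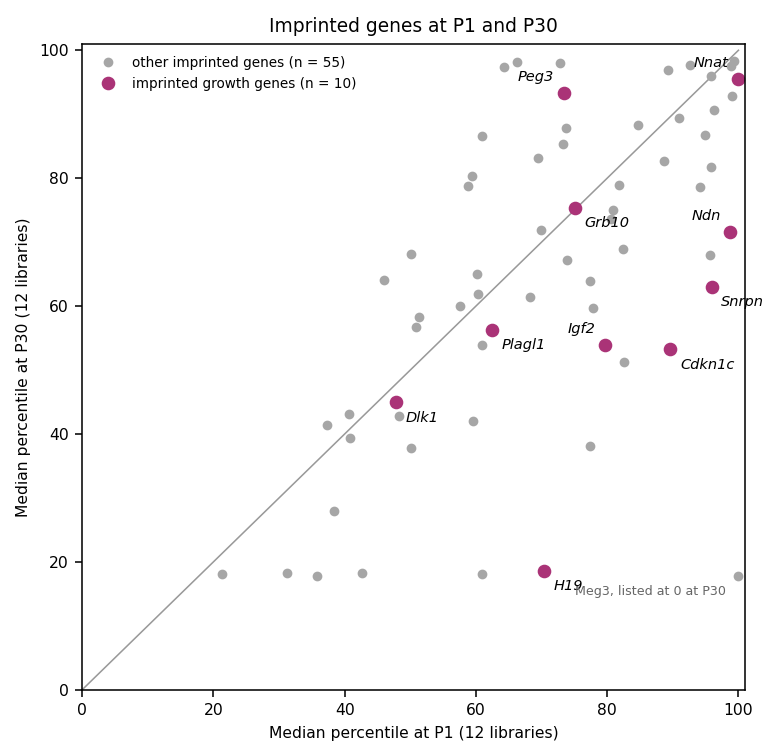
Median percentile at P1 (horizontal axis) against P30 (vertical axis), each over 12 libraries, for the 10 members (purple) and 55 other imprinted genes (grey), with the line of equal position. Of the members 8 lie below the line and of the other genes 32, and Meg3 is marked because it was listed at 0 at P30.

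Markers of cells outside the lineage also had lower median positions at P30 by rank, though several lists overlapped between ages. Over the 12 markers of meningeal and perivascular fibroblasts, the median percentile within a library was 55.9 to 76.5 at P1 and 18.8 to 50.8 at P30, and 3 of the 12 markers did not overlap between ages. Over the 8 choroid plexus markers it was 41.3 to 65.0 at P1 and 28.7 to 46.1 at P30, so that the ages overlapped. Of these markers 1 was lower without overlap, beside 8.23% of the 16895 genes. Both cell types are known sources of Igf2. Other lists had lower medians as well. Those of microglia, GABAergic neurons, ependymal cells, red blood cells, and pericytes with smooth muscle overlapped between ages. Over the 8 cycling progenitor markers the median percentile was 60.1 to 75.2 at P1 and 28.45 to 43.5 at P30, and 5 did not overlap. Of the 8 red blood cell markers, 3 were lower without overlap, whereas 6 of the 7 oligodendrocyte markers were higher. In bulk libraries, fewer cells of a type and less RNA per cell cannot be told apart. The part of any of these cells in the lower position of Igf2, H19 and Cdkn1c was not tested.

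Whether loss of Kdm6b altered the members was asked within each age. At P1, limma was fitted to the 16250 genes whose mean reached 1 FPKM, on log2(FPKM + 0.1), and all 10 members were tested. None passed an adjusted p of 0.05, beside 0.0% of all genes tested (0 of 16250), and none had an unadjusted p under 0.05, beside 2352 genes. No member had groups that did not overlap, beside 1.29% of the genes tested. The log2 fold change (Kdm6b-cKO over WT) was above 0 in 6 and below 0 in 4 members, with a median of 0.21. Over all genes its median was -0.25, which quantile normalization moved to -0.02, and the P1 changes are read against that shift. All 8 markers of cycling progenitors had higher medians in Kdm6b-cKO at P1, 2 of them with groups apart, and their sums were 81.5 to 121 FPKM in WT and 86.2 to 163 in Kdm6b-cKO.

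**Figure D3:**
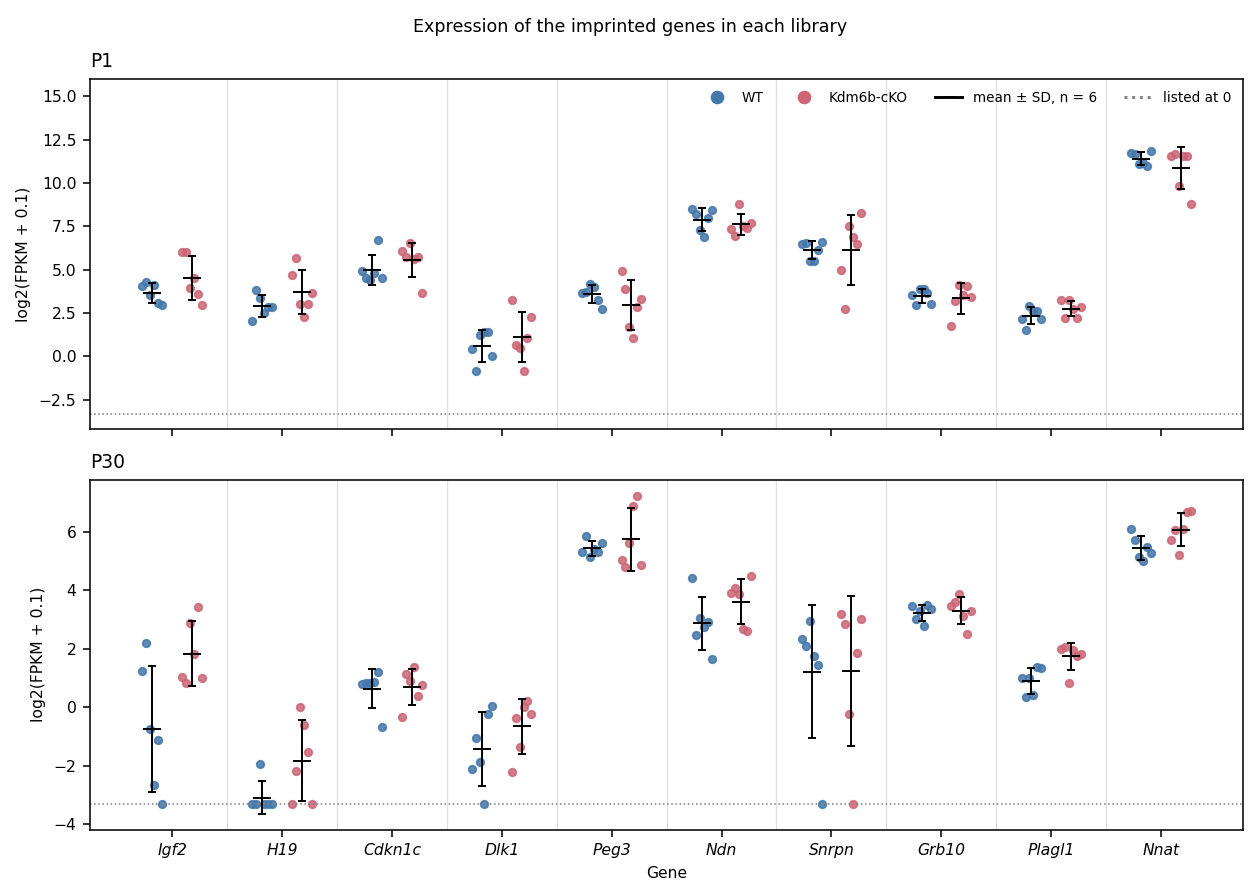
Level of each member in every library, as log2(FPKM + 0.1), at P1 (upper panel) and P30 (lower panel), with WT in blue, Kdm6b-cKO in red, black bars for the mean ± SD of 6 libraries and a dotted line for genes listed at 0. The genotypes overlap for every member at both ages, and at P30 the Igf2 values of WT spread from 0 to 4.46 FPKM.

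Igf2 at P1 was at 7.68 to 19.4 FPKM in WT (median 14.1) and at 7.74 to 65.5 in Kdm6b-cKO (median 19.0). H19 was at 4.05 to 14.0 FPKM in WT (median 7.01) and at 4.70 to 50.6 in Kdm6b-cKO (median 10.3). Kdm6b-cKO 0 and 1 were the 2 highest libraries of both genes, at 65.5 and 64.9 FPKM of Igf2 and 25.2 and 50.6 of H19. Kdm6b-cKO 3 was also above every WT library for Igf2, at 23.1 FPKM, and the remaining Kdm6b-cKO values of both genes lay within the WT range. For Igf2 the log2 fold change was 0.85 (SE 0.50, limma adjusted p = 0.453) and that of H19 0.82 (SE 0.51, limma adjusted p = 0.482). Without Kdm6b-cKO 0 and 1, left out after the data were seen, both were 0.09. Leaving out the highest libraries of a group lowers its fold change by itself. Kdm6b-cKO 0 and 1 held the most Rn45s at P1. Their fibroblast markers summed to 108 and 91.9 FPKM, within the range of the other P1 libraries. Their choroid plexus markers summed to 654 and 732 FPKM, above each WT library but below Kdm6b-cKO 2 and 3. Among the 2 WT and 5 Kdm6b-cKO libraries without olfactory receptor signal, Igf2 differed by 0.64 and H19 by 0.79 on the log2 scale, and among the 4 WT and 1 Kdm6b-cKO libraries with it by -0.44 and 0.78. The part of these values in the result was not tested.

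Cdkn1c at P1 was at 21.1 to 102 FPKM in WT (median 24.9) and at 12.3 to 91.6 in Kdm6b-cKO (median 52.6). Of the 6 WT libraries, 5 lay at or below 30.1 FPKM and WT 4 stood at 102. Of the 6 Kdm6b-cKO libraries, 5 lay at or above 48.6 and Kdm6b-cKO 5 stood at 12.3, the lowest of all 12. Kdm6b-cKO 5 also had the lowest effective depth, 192000 reads. The log2 fold change was 0.58 (SE 0.47, limma adjusted p = 0.575). WT 4 and Kdm6b-cKO 5 both belong to the libraries with olfactory receptor signal, of which 4 were WT and 1 was Kdm6b-cKO. Among the other 2 WT and 5 Kdm6b-cKO libraries the difference was 1.22 on the log2 scale (exact permutation p = 0.0476, the smallest this split can give). Among those 5 it was -1.46, a value with 1 Kdm6b-cKO library and no test. Such splits were made for every member at both ages, and their p-values are not adjusted for that number.

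The genotypes of the other members overlapped at P1 as well. Peg3 was at 6.47 to 17.8 FPKM in WT and at 1.94 to 29.8 in Kdm6b-cKO, with both the lowest and the highest library in Kdm6b-cKO (log2 fold change -0.62, SE 0.55, limma adjusted p = 0.608). Without Kdm6b-cKO 0 and 1 that value was -1.34 (limma adjusted p = 0.129), without Kdm6b-cKO 0 alone -1.01, without Kdm6b-cKO 2 -0.37 and without Kdm6b-cKO 3 -0.24. Plagl1 was at 2.80 to 7.36 FPKM in WT and at 4.58 to 9.38 in Kdm6b-cKO, with 2 Kdm6b-cKO libraries above every WT library. Its log2 fold change was 0.42 (SE 0.35, limma adjusted p = 0.581, exact permutation p = 0.143). Nnat was at 2000 to 3625 FPKM in WT, and 4 Kdm6b-cKO libraries lay between 2961 and 3229 while Kdm6b-cKO 2 and 5 held 921 and 448 (log2 fold change -0.56, SE 0.52). Without Kdm6b-cKO 5 the log2 fold change of Nnat was -0.15, and without Kdm6b-cKO 2 it was -0.36. Ndn was at 116 to 354 FPKM in WT and at 124 to 435 in Kdm6b-cKO, with 5 of 6 Kdm6b-cKO libraries below the WT median (log2 fold change -0.27, SE 0.35). Dlk1 was at 0.455 to 2.56 FPKM in WT and at 0.445 to 9.32 in Kdm6b-cKO, and the highest value came from Kdm6b-cKO 0, a library of 343000 effective reads. Grb10 (log2 fold change -0.15, SE 0.39) and Snrpn (0.01, SE 0.71) had fold changes smaller than their SE. The sum of Snrpn and Snurf differed by 0.39 on the log2 scale (exact permutation p = 0.299).

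At P30, 13289 genes passed the filter and with them 8 members, since H19 and Dlk1 had means of 0.165 and 0.515 FPKM. No member passed an adjusted p of 0.05, beside 0.369% of all genes tested (49 of 13289). No member had groups without overlap, beside 1.94% of the genes tested. All 8 log2 fold changes were above 0, with a median of 0.47 beside -0.05 over all genes, and 3 of the 8 had an unadjusted p under 0.05 (Igf2, Plagl1 and Nnat) beside 1689 of the 13289 genes. When libraries were weighted by their spread, which gave Kdm6b-cKO 2, 3 and 4 weights of 0.19 to 0.269 against at least 0.736 in the others, Igf2, Ndn, Nnat and Plagl1 were called (limma adjusted p = 0.0413, 0.024, 0.0369 and 0.022), among 1889 genes called in all. Markers of several cell types moved with genotype at P30. The 7 oligodendrocyte markers all had lower medians in Kdm6b-cKO, 4 with groups apart, and summed to 259 to 494 FPKM in WT and 134 to 195 in Kdm6b-cKO. All 8 microglia markers had higher medians in Kdm6b-cKO, none with groups apart, and summed to 12.2 to 33.9 FPKM in WT and 19.1 to 44.9 in Kdm6b-cKO. The part of these cells in the members' fold changes was not tested.

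**Figure D4:**
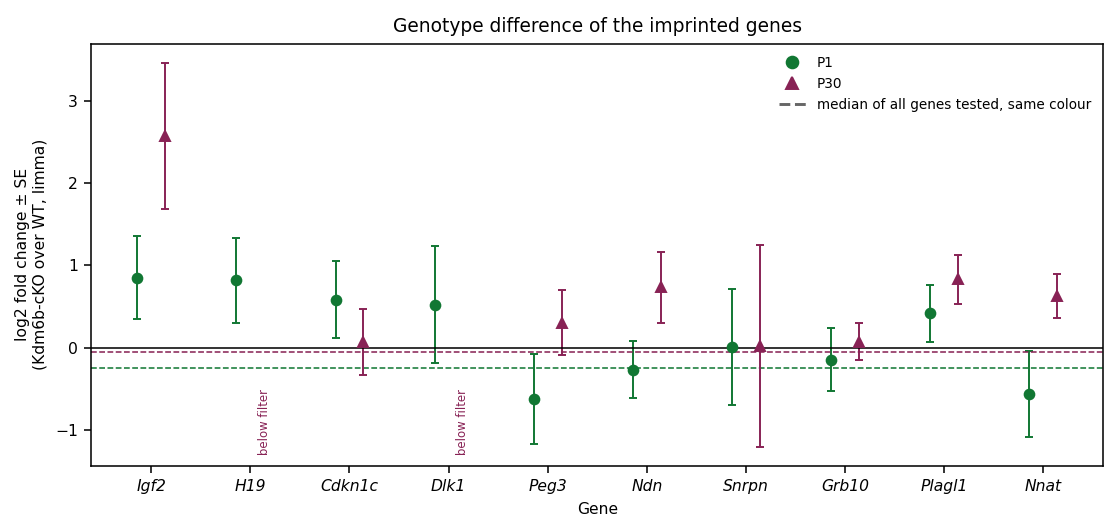
Log2 fold change of Kdm6b-cKO over WT ± SE from limma for each member at P1 (green circles) and P30 (purple triangles), with dashed lines for the median of all genes tested at each age. At P30 the 8 members tested lie at or above 0, with Igf2 at 2.57, and H19 and Dlk1 fell below the filter.

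Igf2 at P30 was at 0 to 4.46 FPKM in WT (median 0.426) and at 1.67 to 10.8 in Kdm6b-cKO (median 2.70). WT 2 to 5 held at most 0.496 FPKM, whereas WT 0 and 1 held 2.28 and 4.46, within the Kdm6b-cKO range. The log2 fold change was 2.57 (SE 0.88, limma adjusted p = 0.245), and the exact permutation p of Igf2 alone was 0.0303. The fibroblast markers summed to 3.27 to 7.82 FPKM in WT 2 to 5, to 24.0 and 20.2 in WT 0 and 1, and to 20.0 to 29.3 in Kdm6b-cKO. Of those 12 markers, 11 had a higher median in Kdm6b-cKO, none had groups apart, and none was at 0 in every library. The GABAergic markers divided the libraries the same way, as given above. The choroid plexus markers did not. Their sums were 1.32 to 18.7 FPKM in WT 2 to 5 and 20.0 and 6.19 FPKM in WT 0 and 1. In Kdm6b-cKO the choroid plexus sums were 3.595 to 20.2 FPKM. Without WT 2 to 5, which held the lowest Igf2 of WT, the log2 fold change of Igf2 was 0.11 (SE 0.78). These libraries were left out after the data were seen, and a smaller value follows from that choice. The part of the cells behind these markers in the result was not tested.

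**Figure D5:**
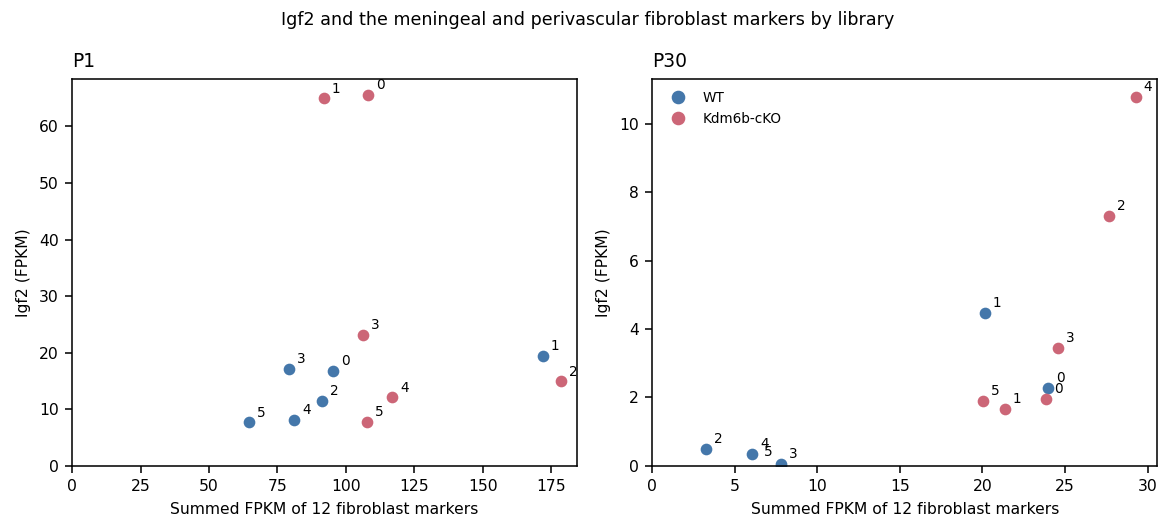
FPKM of Igf2 (vertical axis) against the summed FPKM of 12 meningeal and perivascular fibroblast markers (horizontal axis) in each P1 library (left) and P30 library (right), labelled by library number, WT in blue and Kdm6b-cKO in red. At P30, WT 2 to 5 lie at marker sums of at most 7.82 FPKM and Igf2 of at most 0.496, and WT 0 and 1 lie among the Kdm6b-cKO libraries.

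H19, the neighbour of Igf2, was covered by 2 reads over the 6 WT libraries of P30, all in WT 2, and by 11 over the 6 Kdm6b-cKO libraries, spread over 4 of them. The genotypes overlapped at 0 (log2 difference 1.26, exact permutation p = 0.106). H19 was at 0 FPKM in WT 0 and 1, the WT libraries with Igf2 in the Kdm6b-cKO range. Among the 5 WT and 3 Kdm6b-cKO libraries with more than 1000 FPKM of Rn45s, H19 differed by 2.33 on the log2 scale (exact permutation p = 0.0179). That p is the smallest this split can give and is not adjusted for the number of splits. Among the other 1 WT and 3 Kdm6b-cKO libraries the difference of H19 was 0.38. Igf2 differed by 3.85 (exact permutation p = 0.0714) and by -0.30 in the same 2 sets.

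Plagl1 at P30 was at 1.16 to 2.47 FPKM in WT (median 1.91) and at 1.69 to 4.11 in Kdm6b-cKO (median 3.62). Of the 6 Kdm6b-cKO libraries, 5 lay above every WT library and Kdm6b-cKO 2 lay among them at 1.69. The log2 fold change was 0.83 (SE 0.29, limma adjusted p = 0.258), and the exact permutation p of Plagl1 alone was 0.0152, the lowest of the 10 members before any adjustment for their number. WT 0 and 1 held 1.91 and 1.16 FPKM, and without WT 2 to 5 the log2 fold change was 1.07 (SE 0.43). The difference was 0.63 among the libraries with more than 1000 FPKM of Rn45s and 0.95 among the others. Plagl1 was called with array weights, as given above, and in no other fit at P30.

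Nnat at P30 was at 32.0 to 69.2 FPKM in WT (median 41.8) and at 37.3 to 105 in Kdm6b-cKO (median 67.5). Kdm6b-cKO 4 and 5 lay above every WT library, and 5 of 6 lay above the WT median. The log2 fold change was 0.63 (SE 0.27, limma adjusted p = 0.351, exact permutation p = 0.0563). Without WT 2 to 5, which also held the lowest Nnat of WT, it was 0.17. It was 0.67 among the libraries with more than 1000 FPKM of Rn45s and 0.05 among the others. Nnat lies within Blcap on the other strand, and the strand of the counting is not given in the sources used here, so that reads in their overlap cannot be assigned with certainty.

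Ndn was at 3.04 to 21.4 FPKM in WT (median 7.03) and at 6.05 to 22.2 in Kdm6b-cKO (median 14.7) at P30, with WT 0 at 21.4 among the highest. Its log2 fold change was 0.73 (SE 0.43, limma adjusted p = 0.517), and 0.16 without WT 2 to 5. The difference of Ndn was 0.50 among the libraries with more than 1000 FPKM of Rn45s and -0.28 among the others. Peg3 was at 35.3 to 57.5 FPKM in WT and at 28.0 to 152 in Kdm6b-cKO. Kdm6b-cKO 3 and 4 held 118 and 152 FPKM, above every WT library, and Kdm6b-cKO 0, 1 and 5 held 28.0 to 32.5, below every WT library. Peg3 had a log2 fold change of 0.31 (SE 0.40), and -0.35 without Kdm6b-cKO 3 and 4, the libraries with the most Rn45s and the most Peg3. Among the libraries with more than 1000 FPKM of Rn45s the difference of Peg3 was 1.12 (exact permutation p = 0.0536), and among the others -0.39.

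Cdkn1c was at 0.518 to 2.19 FPKM in WT and at 0.685 to 2.48 in Kdm6b-cKO at P30, which stood for 107 and 74 whole reads over 6 libraries each (log2 fold change 0.07, SE 0.40). Grb10 was at 6.78 to 11.2 and at 5.63 to 14.4 FPKM (log2 fold change 0.07, SE 0.22). Dlk1 was at 0 to 0.934 FPKM in WT and at 0.113 to 1.07 in Kdm6b-cKO (log2 difference 0.76, exact permutation p = 0.273). Snrpn had a log2 fold change of 0.02 (SE 1.22), and its sum with Snurf differed by 0.05 on the log2 scale (exact permutation p = 0.797), with 56.1 to 134 FPKM in WT and 71.4 to 96.6 in Kdm6b-cKO.

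The genotype effect was also compared between ages, on the 12644 genes tested at both. None of the 8 members passed an adjusted p of 0.05, beside 0.00791% of the genes tested (1 of 12644). The largest differences (P30 minus P1) were 1.73 on the log2 scale for Igf2 (SE 1.06, limma adjusted p = 0.50) and 1.19 for Nnat (SE 0.57, limma adjusted p = 0.377). Nnat had a negative fold change at P1 and a positive one at P30, and the unadjusted p of its difference was 0.048, beside 1668 of the 12644 genes with an unadjusted p under 0.05.

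Ratios between a member and its imprinted neighbour within a library depend little on the scaling of libraries, and were compared for 7 pairs at both ages. None of the 14 exact permutation tests had an adjusted p below 0.955. At P1, the median log2 ratio of Igf2 to H19 was 0.34 in WT and 0.75 in Kdm6b-cKO (difference of means 0.03, exact permutation p = 0.955). At P30 it was 1.70 in WT and 3.67 in Kdm6b-cKO (difference of means 1.31, exact permutation p = 0.216), with H19 at 0 in 7 of the 12 libraries. Peg3 to Usp29 had a median log2 ratio of -0.16 in WT and -0.91 in Kdm6b-cKO at P1 (exact permutation p = 0.227), and 3.35 and 3.56 at P30. The pairs Cdkn1c and Kcnq1ot1, Ndn and Magel2, Snrpn and Ube3a, and Nnat and Blcap had differences of means between -0.34 and 0.37 at both ages. The limits on Snrpn and Snurf and on the overlap of Nnat and Blcap hold for these ratios. For Dlk1 and Meg3 only the P1 ratio can be read, because of the zeros of Meg3 (difference of means 0.63, exact permutation p = 0.515).

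The wider imprinted list held no called gene at either age (55 tested at P1 and 41 at P30). Its median log2 fold change was -0.33 at P1 and 0.03 at P30, beside -0.25 and -0.05 over all genes. The 3 lowest p-values at P1 belonged to Osbpl5, a lipid transfer protein (13.6 ± 3.61 FPKM in WT and 5.61 ± 2.52 in Kdm6b-cKO, SD, n = 6), to Trappc9 (22.1 ± 4.50 and 11.4 ± 5.29) and to Bcl2l1, an inhibitor of apoptosis (81.1 ± 27.6 and 35.9 ± 34.1). Their limma adjusted p-values were 0.184, 0.190 and 0.195. At P30 they belonged to Atp10a, to Airn, the noncoding RNA antisense to Igf2r, and to Inpp5f (limma adjusted p = 0.259, 0.265 and 0.391). Airn was at 2.32 ± 1.86 FPKM in WT and 6.97 ± 2.99 in Kdm6b-cKO (SD, n = 6).

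No gene of the insulin-like growth factor list was called among 18 tested at P1 and 12 at P30. Igfbp2, a carrier of IGF ligands, was at 86.1 ± 40.7 FPKM in WT and 165 ± 53.5 in Kdm6b-cKO at P1 (SD, n = 6, limma adjusted p = 0.211), ahead of Igf2bp2 and Igf1. At P30 the lowest p-values were those of Lin28b, Igfbp5 and Igfbp3. Igfbp3, another carrier, was at 1.00 ± 0.405 FPKM in WT and 2.11 ± 0.753 in Kdm6b-cKO, with groups that did not overlap (limma adjusted p = 0.245). The imprint maintenance list had no called gene among 14 tested at P1 and 12 at P30. Trim28, the corepressor that ZFP57 recruits, was at 70.3 ± 13.7 and 111 ± 28.5 FPKM at P1 (limma adjusted p = 0.231) and at 58.0 ± 12.6 and 41.9 ± 8.77 at P30 (limma adjusted p = 0.322), so that its fold change had opposite signs at the 2 ages. The other genes with the lowest p-values were Ctcf and Arid4b at P1 and Tet3 and Zfp445 at P30.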

How the data were processed

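Nuclear RNA was sequenced from FANS-sorted Emx1-lineage cells of mouse cortex. Per the labels, the authors aligned reads to mm9 with HISAT2 and used Cuffdiff, and deposited one FPKM table per age, normalized separately. The Cuffdiff comparison tables (fold changes, p-values) were not used. Table columns carry library numbers 0 to 5 that match no replicate number of the labels, so columns were assigned to groups only. Unused columns of libraries: 0.

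Genotypes were compared within an age with R 4.3.3 and its package limma 3.58.1 (linear model, moderated with an intensity trend, both directions). The model took log2(FPKM + 0.1) of each gene whose mean reached 1 FPKM, and p-values were adjusted by the Benjamini-Hochberg method across every gene in the fit. The fit was tested on simulated data. Single genes were compared by exact two-sided permutation over 924 splits. A fold change on this scale understates changes of low genes. Effective depth (fragments of 200 bases) covers counting error only. Percentiles and figures used Python 3.11.15 with matplotlib 3.10.9, scipy 1.17.1, pandas 2.3.3 and numpy 2.4.6.

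The named genes are the members, their neighbours, the 3 genes of each list with the lowest p at each age, and the 3 genes most alike at P1 to Igf2, Dlk1, Peg3 and Plagl1. Neighbour genes that moved with age, Snurf and Malat1 were named after their values were seen. The members and lists were chosen with earlier results of these data known.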

Additional observations from a re-analysis of the deposited data

Results flagged for a closer look

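In 6 of the 40 groups of 6 libraries (10 members, 2 genotypes, 2 ages), 1 library stood far from the other 5 on the log2(FPKM + 0.1) scale. The gap to its nearest neighbour took more of the range than Dixon's critical value for 6 values allows, which chance gives in about 1 of 20 groups of varying values. That rate does not apply to H19 in WT at P30, where any value above 0 would stand apart. For Cdkn1c at P1, WT 4 stood at 102 FPKM against 21.1 to 30.1 in the other WT libraries, and Kdm6b-cKO 5 at 12.3 against 48.6 to 91.6 in the other Kdm6b-cKO libraries. At P30, Cdkn1c was at 0.518 FPKM in WT 5 against 1.64 to 2.19. H19 at P30 was at 0.159 FPKM in WT 2 and at 0 in the other 5, a value of 2 reads. Snrpn was at 0 FPKM in WT 5 at P30 against 2.59 to 7.64, where Snurf of the same transcript was at 74.6. Plagl1 at P30 was at 1.69 FPKM in Kdm6b-cKO 2 against 3.25 to 4.11 in the other Kdm6b-cKO libraries.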

How the results depend on the processing

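No member was called at P1 under any of the alternatives run, nor in the difference between ages. At P30, array weights called 4 of 8 members, namely Igf2 (log2 fold change 2.34, limma adjusted p = 0.0413), Ndn (1.29, 0.024), Nnat (0.70, 0.0369) and Plagl1 (0.87, 0.022). These weights were lowest for Kdm6b-cKO 2, 3 and 4 (0.19 to 0.269) and called 1889 genes in all. In the wider imprinted list at P30, array weights called 2 of 41 genes, beside 1889 of all 13289. A term for Rn45s under 1000 FPKM called 4 of 41, beside 1416 of all 13289. That term was set from the values, as the labels name no batch, and it marks 1 WT and 3 Kdm6b-cKO libraries. Leaving out 1 library gave 0 calls among members and in the wider list at both ages. Members lower at P30 numbered 6 in WT alone, adding Igf2 and Snrpn, where 13.8% of all genes were lower against 5.53% over all libraries. The position of Snrpn alone is uncertain, as given above. Members lower at P30 numbered 3 of 8 among genes whose mean reached 1 FPKM at both ages (10.4% of those genes), and 4 under the other alternatives.

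No pairing was found: libraries of the same number deviated together with a correlation over 0.1 in 1 of 6 pairs at P1 and in 2 of 6 at P30. A replicate block on the library number gave 0 member calls, and 0 genes in all at P30 against 49 without it.

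Signs turned for Dlk1, Snrpn and Grb10 at P1 and for Cdkn1c, Peg3, Snrpn and Grb10 at P30, and the cause was not tested. With array weights, Dlk1 was -0.16 and Grb10 0.15 at P1, and Cdkn1c -0.089 and Peg3 -0.33 at P30. Snrpn at P1 was -0.00474 with median-of-ratios scaling and -0.30 with quantile normalization. The Rn45s term gave -0.91 for Snrpn and -0.016 for Grb10 at P30. Alternatives chosen after seeing the data left out libraries. Without Kdm6b-cKO 0 and 5 at P1, Dlk1 was -0.29, Snrpn -0.23 and Grb10 0.24, and without Kdm6b-cKO 0 and 1, Grb10 was 0.29. At P30, Cdkn1c was -0.016 and Peg3 -0.35 without Kdm6b-cKO 3 and 4, and Cdkn1c was -0.10 and Snrpn -0.99 without WT 2 to 5. Leaving out 1 library gave ranges of -0.42 to 0.70 for Snrpn and -0.30 to 0.18 for Grb10 at P1, and of -0.19 to 0.28 for Cdkn1c, -0.89 to 0.93 for Snrpn and -0.038 to 0.23 for Grb10 at P30. Over all alternatives the limma adjusted p of Igf2 at P30 ran from 0.0413 to 1 and that of Plagl1 from 0.022 to 1. Depth limits H19 at P30 (2 reads in WT and 11 in Kdm6b-cKO) and Dlk1. It also limits the values of Kdm6b-cKO 5 at P1 (192000 effective reads), among them its low Cdkn1c.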

Other observations

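The genes most alike to 4 of the members were sought over the 12 P1 libraries, by Pearson correlation of the deviations from the group means. These are descriptions over points that share depth and library, with no test. Igf2 was most alike to Smg9, Trak1 and Atn1 (r = 0.934, 0.933 and 0.933), and Dlk1 to Rpusd2, Garem2 and Ripk1 (r = 0.957, 0.957 and 0.944). Peg3 was most alike to Cdc37l1, Arhgap45 and Shisa7 (r = 0.953, 0.94 and 0.938), and Plagl1 to Akap12, Kbtbd2 and Ptprz1 (r = 0.888, 0.871 and 0.861). None of these 12 genes is on the imprinted lists used here.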
